A study of Mus musculus with 4 samples.

Results

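Slc1a2, Slc1a3, Glul, Aqp4, Gja1, Gjb6, Apoe and Clu are 8 genes by which astrocytes are known to clear glutamate, move water and small molecules, and secrete lipid carriers. They were chosen by symbol among the 43348 genes of the count matrices, and all 8 were measured. Their unique molecular identifier (UMI) counts, which number the captured RNA molecules, were followed through the cell classes of a single-cell RNA-seq study of fluorescent cells sorted from mouse forebrain. The cells came from juvenile littermate mice of both sexes, at postnatal day 18 to 20. All mice carried Nkx2-1-Cre, which is active in the embryonic medial ganglionic eminence (MGE), and the Ai14 TdTomato reporter, so that cells of the Nkx2-1 lineage fluoresce. WT mice were Nkx2-1Cre:Grin1wt/wt:TdT+. Grin1-null mice were Nkx2-1Cre:Grin1fl/fl:TdT+, in which the obligatory NMDA receptor subunit Grin1 is deleted in the cells where Cre was active, and not in the whole animal. TdTomato+ cells were sorted from frontal cortex and from hippocampus of each genotype, and the 4 groups comprised 10 libraries, 3 from WT and 2 from Grin1-null mice in each region. Several mice were pooled in a session and the labels do not assign libraries to animals, so that a p-value here measures the spread between libraries, which may be technical.

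A total of 26201 of 26987 cells were kept, in libraries of 1488601 to 47338167 UMIs with a median of 1479 UMIs per cell in WT hippocampus replicate 2, the shallowest, and 9508 in Grin1-null hippocampus replicate 2, the deepest. Any pair of libraries shared at most 12 cell barcodes. Grin1 stood between 115.7 and 238.9 counts per 1000000 UMIs (CPM) in the interneurons of the 6 WT libraries and between 19.2 and 35.02 CPM in those of the 4 Grin1-null libraries, so that the genotype labels and the targeted gene matched in all 10. The 8 genes were kept out of the features used for clustering. Among 33 clusters, 1 cluster of 467 cells had 12 of 12 astrocyte markers used for naming, none of them one of the 8 genes, and is called astrocytes. The other classes, named in the same way, were SST interneurons (4799 cells, TH-expressing cells included), PVALB interneurons (2333), neurogliaform cells (NGFC, 2203), glutamatergic neurons (986), oligodendrocyte precursors (3298), oligodendrocytes (8790), microglia (263), endothelial cells (95) and choroid plexus cells (105). A further 2862 cells stayed unnamed. SST, PVALB and NGFC cells together are called interneurons (9335 cells). Because classes were drawn from the same cells, levels between classes are given without a test.

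In the synapse, glutamate is removed mainly by the astrocyte transporters GLT-1 (Slc1a2) and GLAST (Slc1a3), and glutamine synthetase (Glul) converts it to glutamine, which neurons take up and use to make glutamate and GABA. Aquaporin-4 (Aqp4) is the water channel of astrocyte endfeet, and connexin 43 (Gja1) and connexin 30 (Gjb6) form the gap junctions of the astrocyte network. Apolipoprotein E (Apoe) and clusterin (Clu, apolipoprotein J) are secreted carriers of lipid, of which Apoe in brain is known mainly from astrocytes and microglia.

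On GRCm38, Slc1a2 spans chromosome 2 (102658659 to 102790784, + strand), Slc1a3 chromosome 15 (8634124 to 8710764, - strand), Glul chromosome 1 (153899944 to 153909723, + strand), Gja1 chromosome 10 (56377330 to 56402513, + strand), Gjb6 chromosome 14 (57123303 to 57133611, - strand), Apoe chromosome 7 (19696109 to 19699188, - strand) and Clu chromosome 14 (65968483 to 65981547, + strand). RefSeq promoter windows (GRCm38.p6), each with 250 bases before and 50 bases after a transcription start, were matched by symbol for 6 of the 8 genes. Below are 4 of them, the windows of the glutamate transporters and of the genes whose levels outside astrocytes take up most of the results, Glul and Apoe. They are written 5′ to 3′ along the gene, with CpG dinucleotides in capitals. The windows lie at chr2:102706188-102706487 (+, at a start inside the annotated gene), chr15:8710758-8711057 (-), chr1:153899679-153899978 (+) and chr7:19699139-19699438 (-, at the outermost of the 3 Apoe starts in the table).
Slc1a2: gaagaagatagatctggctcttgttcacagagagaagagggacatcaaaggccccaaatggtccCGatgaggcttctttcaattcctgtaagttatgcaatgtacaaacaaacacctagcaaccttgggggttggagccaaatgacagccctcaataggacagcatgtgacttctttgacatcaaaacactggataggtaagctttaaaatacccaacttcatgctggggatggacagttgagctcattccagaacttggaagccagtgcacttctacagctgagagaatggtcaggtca
Slc1a3: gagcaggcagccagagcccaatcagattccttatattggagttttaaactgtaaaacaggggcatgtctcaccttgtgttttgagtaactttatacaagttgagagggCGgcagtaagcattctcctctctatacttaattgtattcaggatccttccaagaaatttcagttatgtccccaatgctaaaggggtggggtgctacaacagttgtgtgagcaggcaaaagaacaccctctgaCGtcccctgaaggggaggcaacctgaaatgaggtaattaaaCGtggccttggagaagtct
Glul: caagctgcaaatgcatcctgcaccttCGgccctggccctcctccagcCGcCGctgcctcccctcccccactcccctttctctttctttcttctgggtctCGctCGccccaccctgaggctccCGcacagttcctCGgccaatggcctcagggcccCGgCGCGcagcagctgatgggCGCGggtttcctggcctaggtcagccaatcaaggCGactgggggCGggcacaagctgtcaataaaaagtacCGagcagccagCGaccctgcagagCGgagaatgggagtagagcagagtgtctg
Apoe: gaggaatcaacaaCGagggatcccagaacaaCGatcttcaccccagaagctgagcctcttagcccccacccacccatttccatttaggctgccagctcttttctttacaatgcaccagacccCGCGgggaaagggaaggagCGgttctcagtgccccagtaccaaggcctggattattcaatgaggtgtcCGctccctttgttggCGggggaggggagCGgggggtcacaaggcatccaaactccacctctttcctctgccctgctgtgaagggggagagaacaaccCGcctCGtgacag

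The Glul window held 17 CpG dinucleotides and the Apoe window 10, against 3 for Slc1a3 and 1 for Slc1a2, where the median of 32817 RefSeq promoter windows was 7. Fewer CpG than in the Glul window were counted in 68.62% of all windows, and fewer than in the Slc1a2 window in 5.43%. The letters TATAAA, searched on either strand, were present in the Slc1a3 window at base -161 from the start and in 13.62% of all windows. GGGCGG was present in the Slc1a3 window at base -145 and in the Glul window at base -33, and in 35.63% of all windows. These matches describe the letters of the windows only.

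All 8 genes had their highest level of the named classes in astrocytes. Astrocytes were few, with 15, 58 and 48 cells in WT cortex, 18, 45 and 157 in WT hippocampus, 38 in Grin1-null cortex replicate 2, and 15 and 71 in Grin1-null hippocampus. Grin1-null cortex replicate 1 had 2 astrocytes and was left out. Levels below are CPM of the UMIs summed per library and class, given as mean ± SD over libraries with at least 10 cells of the class. Levels of different genes are not read against each other, since only the 3′ ends of the transcripts were counted.

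**Figure D1:**
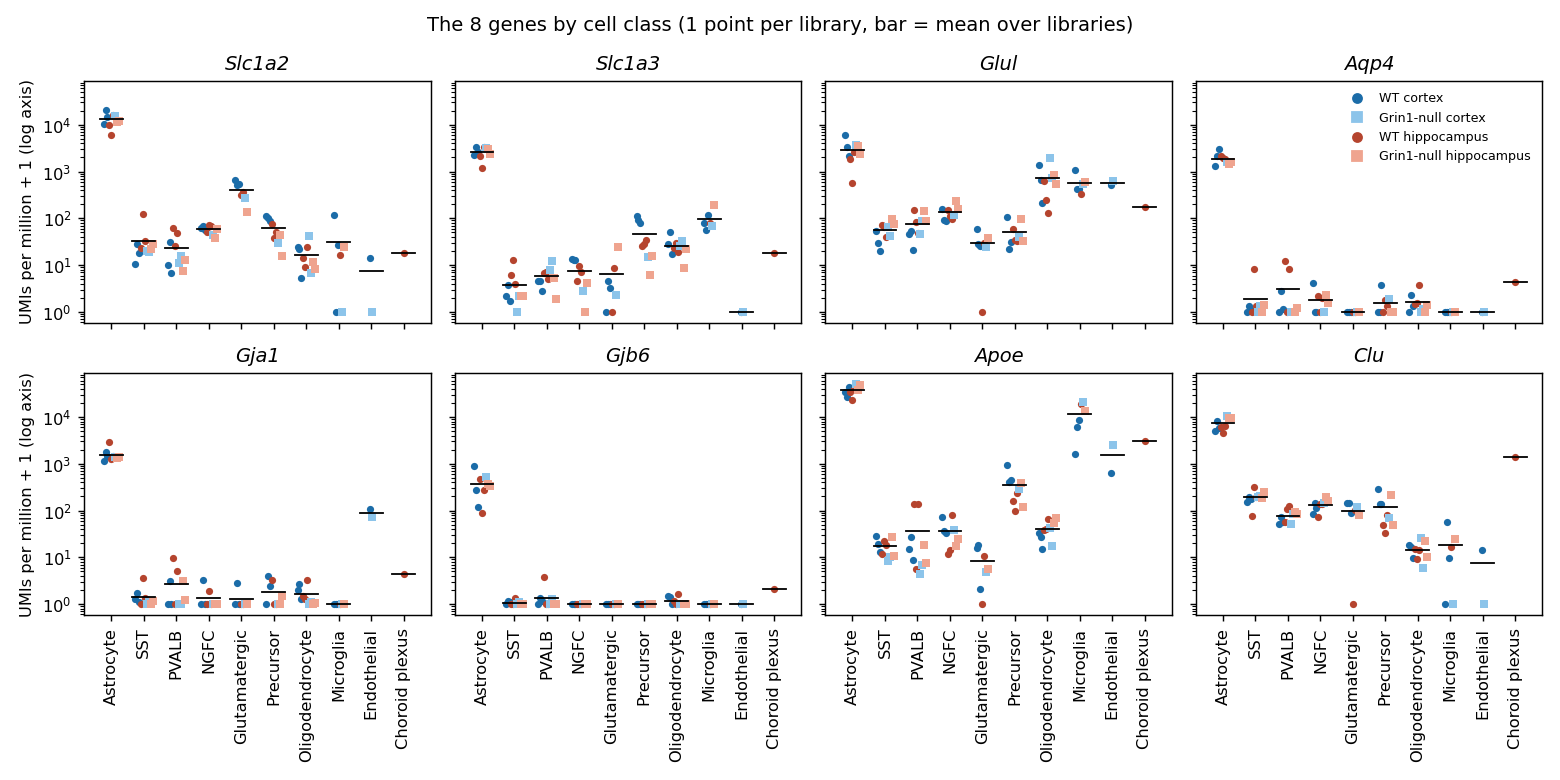
CPM plus 1 (log axis) of the 8 genes in 10 cell classes, with 1 point per library coloured by region and genotype and a bar at the mean over libraries. Each gene is highest in astrocytes; Aqp4, Gjb6 and (but for endothelial cells) Gja1 sit near 0 elsewhere, while Glul, Apoe and Clu stay well above 0 in several other classes.

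Slc1a2 stood at 13068 ± 4415 CPM in astrocytes (n = 9 libraries), from 5917.6 CPM in WT hippocampus replicate 2 through a median of 11981 to 21170 CPM in WT cortex replicate 2. Glutamatergic neurons came second, at 400.6 ± 180.8 CPM (n = 7), below astrocytes by 5.16 ± 0.88 on the log2 scale within the same library (mean ± SD, 7 of 7 libraries). In these neurons Slc1a2 was 655.5, 507.4 and 554.7 CPM in WT cortex, 308.4 and 368.9 CPM in WT hippocampus replicates 2 and 3, 273.9 CPM in Grin1-null cortex replicate 2 and 135.4 CPM in Grin1-null hippocampus replicate 2. The 3 WT cortex libraries were thus the highest of the 7 and did not overlap with the others. The value of WT hippocampus replicate 2 rests on 15 neurons with 19454 UMIs. The study reports that Grin1 was reduced in the MGE interneurons of Grin1-null mice and not in their glutamatergic neurons. Both clusters of glutamatergic neurons had Slc1a2, at 415.3 ± 181.9 CPM in the cluster led by Abi3bp (n = 6) and 298.6 ± 207.1 CPM in that led by Slc17a7 (n = 6). Their Slc1a2 was 3.25 ± 1.90% of the astrocyte level, whereas 20 other astrocyte genes, summed, were at 0.448 ± 0.316%, and the Slc1a2 percentage was above that of the summed genes in 6 of 7 libraries. With each cell thinned to 1000 UMIs, 33.5% of glutamatergic neurons had a Slc1a2 UMI, against 94.5% of astrocytes and 2.89% of interneurons. Unthinned, the shares were 52.5%, 94.0% and 16.0% at median depths of 1300, 2410 and 8271 UMIs.

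Precursors (60.5 ± 33.9 CPM, n = 9), NGFC (57.0 ± 12.1 CPM, n = 9), SST cells (31.7 ± 33.0 CPM, n = 10), microglia (30.9 ± 45.0 CPM, n = 6) and PVALB cells (22.2 ± 19.0 CPM, n = 10) followed. Of these neighbours, only NGFC and SST cells differed by more than the SD of their within-library difference, by 1.11 ± 0.88 on the log2 scale and in the same direction in 8 of 9 libraries. Within the interneurons, Slc1a2 went from 5.01 ± 6.57 CPM in the SST cluster led by Crh (n = 9) to 59.9 ± 22.2 CPM (n = 9) and 109.9 ± 95.015 CPM (n = 5) in the 2 NGFC clusters, both led by Hapln1. An unnamed cluster led by Myh8 stood at 104.8 ± 40.4 CPM (n = 9).

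Slc1a3 stood at 2601 ± 698.5 CPM in astrocytes, between 1210 CPM in WT hippocampus replicate 2 and 3348 CPM in WT cortex replicate 2, with a median of 2559 CPM. In microglia it was 97.5 ± 48.2 CPM (n = 6), lower than in astrocytes by 4.95 ± 0.82 on the log2 scale in 6 of 6 libraries. Precursors (44.2 ± 38.3 CPM) did not differ from microglia above them or from oligodendrocytes (24.9 ± 11.3 CPM) below them beyond the SD of the within-library differences. Interneurons were at 3.61 ± 2.37 CPM. Among the precursors, Slc1a3 was 122.9 ± 82.3 CPM in the cluster led by C1ql1 (n = 8) and 88.3 ± 48.9 CPM in that led by Cenpf, a gene of dividing cells (n = 7), and 2.97 ± 4.75 CPM in that led by Epcam (n = 9).

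Glul stood at 2914 ± 1510 CPM in astrocytes, from 582.8 CPM in WT hippocampus replicate 2 through a median of 2611 CPM to 6030 CPM in WT cortex replicate 1. Oligodendrocytes held 733.0 ± 567.2 CPM (n = 10, 126.4 to 1969 CPM), which was lower than in astrocytes by 2.39 ± 0.93 on the log2 scale in 9 of 9 libraries. This was 22.0 ± 11.1% of the astrocyte level, against 0.985 ± 0.322% for the 20 summed astrocyte genes, and the Glul percentage was the greater in 9 of 9 libraries. Endothelial cells (570.6 ± 75.2 CPM, n = 2) and microglia (569.5 ± 268.0 CPM, n = 6) came next, endothelial cells below oligodendrocytes by 0.27 ± 0.07 and microglia below endothelial cells by 0.24 ± 0.07 on the log2 scale in the 2 libraries that held them.

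Within the oligodendrocytes, Glul varied by cluster. It was 1183 ± 594.4 CPM in the cluster led by Hapln2 (n = 8, 432.1 to 2008 CPM) and 926.7 ± 652.6 CPM in that led by Anln (n = 8, 229.9 to 2312 CPM), and 34.8 ± 11.8 CPM in that led by Tmem2 (n = 9, 16.6 to 53.5 CPM). The lowest library of either of the first clusters thus lay above the highest library of the Tmem2 cluster. The remaining oligodendrocyte clusters lay between them, at 116.2 ± 32.3 to 394.5 ± 287.8 CPM.

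**Figure D2:**
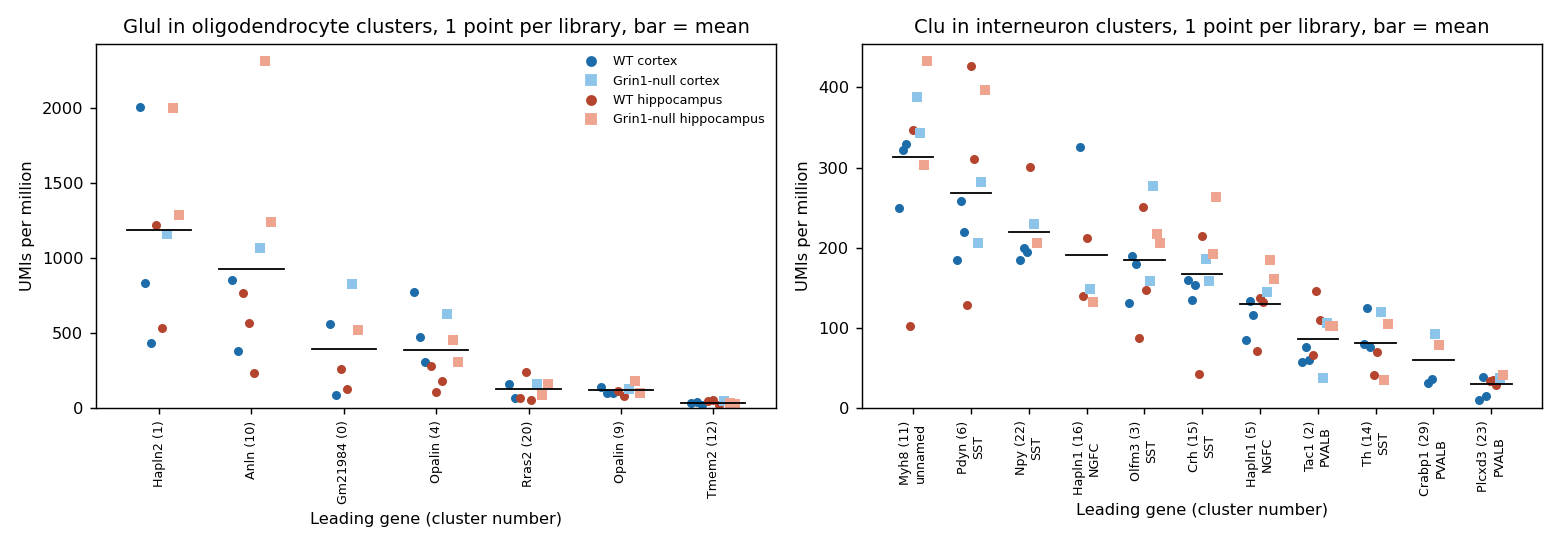
CPM of Glul in the 7 oligodendrocyte clusters (left) and of Clu in the clusters of SST, PVALB and NGFC cells and the unnamed cluster led by Myh8 (right), with 1 point per library with at least 10 cells of the cluster and a bar at the mean. Glul is highest in the Hapln2 and Anln clusters and at most 53.5 CPM in the Tmem2 cluster; Clu falls from the Myh8 and Pdyn clusters to the PVALB cluster led by Plcxd3.

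Aqp4 (chromosome 18, 15389496 to 15410982, - strand) stood at 1879 ± 514.3 CPM in astrocytes, between 1284 and 2992 CPM with a median of 1817 CPM. Gja1 stood at 1568 ± 548.7 CPM, between 1128 and 2955 CPM with a median of 1380 CPM. Gjb6 stood at 371.7 ± 241.1 CPM, between 89.7 and 894.7 CPM with a median of 336.2 CPM. In the other named classes these 3 genes had few UMIs or none, apart from Gja1 in endothelial cells and Gja1 and Aqp4 in choroid plexus cells. No UMI of any of them was counted in the 263 microglia, which allows up to 10.5 CPM by the exact Poisson 95% bound. Gjb6 was also without a UMI in NGFC, precursors, glutamatergic neurons and endothelial cells, with bounds of 0.214, 0.384, 0.925 and 12.8 CPM. Gja1 in endothelial cells stood at 73.4 and 106.1 CPM in the 2 libraries with enough cells, lower than in astrocytes by 4.13 ± 0.12 on the log2 scale. The 105 choroid plexus cells had 29 UMIs of Gja1 (30.7 CPM pooled over libraries, with a 95% exact Poisson interval, for counting error only, of 20.5 to 44.1) and 30 of Aqp4 (31.7 CPM, 21.4 to 45.3), with 3.42 CPM of each in the 1 library with enough cells. The 45 cells of an unnamed cluster led by Vtn, with mural cell genes among its leading genes, had, pooled in the same way, 18 UMIs of Gjb6 (196.4 CPM, 116.4 to 310.4, against 318.6 CPM in pooled astrocytes), 10 of Gja1 (109.1 CPM, 52.3 to 200.7) and 14 of Aqp4 (152.8 CPM, 83.5 to 256.3). In the 3 libraries with at least 10 cells of this cluster Gjb6 stood at 193.6 ± 177.8 CPM, from 0 to 349.6 CPM, and Aqp4 had no UMI. In interneurons Aqp4 was at 0.913 ± 1.08 CPM, Gja1 at 0.559 ± 0.567 CPM and Gjb6 at 0.102 ± 0.131 CPM (n = 10).

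Apoe stood at 37600 ± 8992 CPM in astrocytes. It was 34758, 26888 and 44487 CPM in WT cortex, 34073, 23244 and 39296 CPM in WT hippocampus, 50140 CPM in Grin1-null cortex replicate 2, and 38031 and 47485 CPM in Grin1-null hippocampus. The 9 libraries overlapped between regions and between genotypes. Over 385 astrocytes thinned to 1000 UMIs, the variance of Apoe between cells beyond that of counting was 0.141 of its squared mean. It was 0.181 for Gja1, 0.368 for Slc1a2, 0.375 for Clu and up to 0.717 (Gjb6) for the others. The median thinned astrocyte held 39 UMIs of Apoe (quartiles 28 and 51), and 99.8% of unthinned astrocytes had at least 1.

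Microglia held 11573 ± 7461 CPM of Apoe (n = 6), lower than astrocytes by 2.18 ± 1.20 on the log2 scale in 6 of 6 libraries. It was 1638, 6184 and 8740 CPM in WT cortex, 18718 CPM in WT hippocampus replicate 3, 21006 CPM in Grin1-null cortex replicate 2 and 13154 CPM in Grin1-null hippocampus replicate 2. All 3 WT cortex libraries thus lay below the other 3. The lowest, WT cortex replicate 1, had 16 microglia. An Apoe UMI was found in 64.3% of all microglia at a median of 1240 UMIs, and in 71.4% of those thinned to 1000 UMIs. Choroid plexus cells (3048 CPM in the 1 library with enough cells), endothelial cells (1553 ± 1315 CPM, n = 2) and the cluster led by Vtn (5565 CPM pooled, 5092 to 6069) also had more Apoe than precursors.

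Precursors held 343.5 ± 260.0 CPM of Apoe (n = 9), more than oligodendrocytes (39.5 ± 18.7 CPM, n = 10) by 2.94 ± 1.53 on the log2 scale in 9 of 9 libraries. By precursor cluster, Apoe was 890.3 ± 418.8 CPM in the one led by C1ql1 (n = 8) and 122.5 ± 95.7 CPM in that led by Epcam (n = 9). Neurons were lowest, with 35.9 ± 53.4 CPM in PVALB cells, 35.3 ± 24.2 CPM in NGFC, 16.0 ± 7.30 CPM in SST cells and 7.29 ± 6.67 CPM in glutamatergic neurons. The order of oligodendrocytes and the 3 interneuron classes was within the SD of their within-library differences.

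Clu stood at 7302 ± 2227 CPM in astrocytes. It was 4902, 8285 and 5883 CPM in WT cortex, 5983, 4550 and 6426 CPM in WT hippocampus, 10566 CPM in Grin1-null cortex replicate 2, and 9597 and 9523 CPM in Grin1-null hippocampus. The 3 Grin1-null libraries all lay above the 6 WT libraries. Their astrocytes were also the deepest, with medians of 3207.5, 6151 and 3739 UMIs per cell, against 798 to 2981.5 in the WT libraries. The part of depth in the Clu values was not tested. Choroid plexus cells were second, at 1390 CPM in 1 library. SST cells held 192.8 ± 61.6 CPM (n = 10) and NGFC 131.0 ± 36.9 CPM (n = 9), SST cells being higher by 0.53 ± 0.36 on the log2 scale in 8 of 9 libraries. Precursors (115.8 ± 84.8 CPM), glutamatergic neurons (96.2 ± 49.3 CPM) and PVALB cells (77.2 ± 24.9 CPM) were not separated by the SD of their differences, and oligodendrocytes (13.7 ± 6.21 CPM) and microglia (17.4 ± 21.1 CPM) were at the low end. Among interneuron clusters Clu ranged from 29.7 ± 11.6 CPM in the PVALB cluster led by Plcxd3 (n = 8) to 268.1 ± 97.9 CPM in the SST cluster led by Pdyn (n = 9), and it stood at 312.8 ± 94.1 CPM in the unnamed cluster led by Myh8 (n = 9).

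The astrocyte genes in interneurons were compared by expressing each as a percentage of its level in the astrocytes of the same library. They were set beside a list of 20 other astrocyte genes, among them Aldoc, Mlc1 and Gfap. In the 9 libraries with enough cells the summed list stood in interneurons at 0.614 ± 0.268% of its astrocyte level (0.369 to 1.26%). Apoe stood at 0.0663 ± 0.0417% (0.0215 to 0.157%), below the list in 9 of 9 libraries. The log2 ratio of the Apoe percentage to that of the list was -2.28, -2.79 and -3.84 in WT cortex, -2.54, -4.26 and -1.75 in WT hippocampus, -4.71 in Grin1-null cortex replicate 2, and -3.67 and -4.55 in Grin1-null hippocampus. Its mean was -3.38 ± 1.07 (SD, n = 9; two-sided exact sign-flip permutation test, p = 0.0039, the smallest that 9 libraries allow). This p takes the libraries as independent, whereas interneurons of the same replicate number deviated together. Averaged over libraries of the same number, the mean was -3.23 ± 0.73 (n = 3), where the exact test cannot go below p = 0.25. Set against the median gene of the list in each library in place of the sum, the mean was -2.42 ± 1.02 (n = 9; exact sign-flip permutation test, p = 0.0039) and Apoe was again lower in 9 of 9. The test compares Apoe with these 20 genes, some of which stood lower than Apoe, and does not measure how much of the Apoe was stray RNA.

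**Figure D3:**
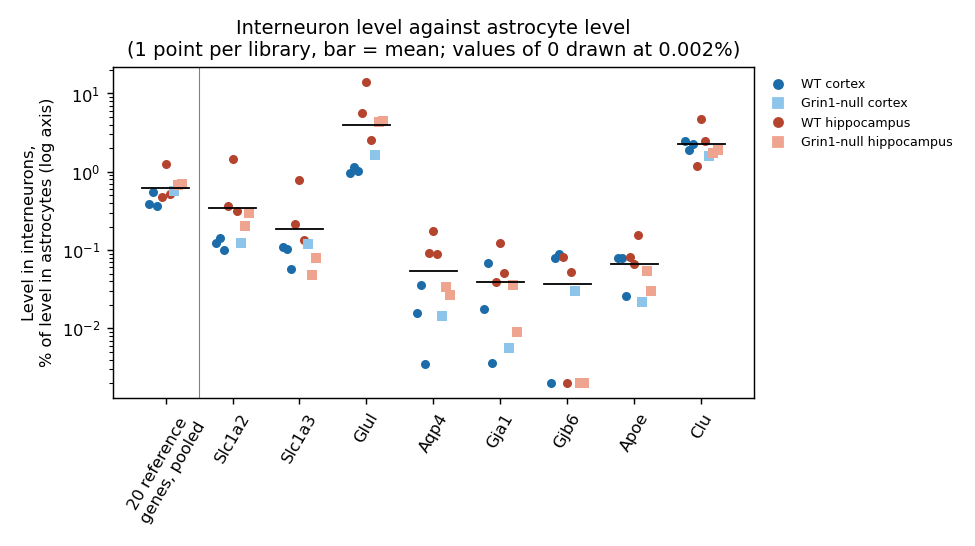
Level in interneurons as a percentage of the level in astrocytes of the same library (log axis) for 20 astrocyte reference genes pooled and for each of the 8 genes, with 1 point per library (9 libraries) and a bar at the mean. Glul and Clu lie above the reference genes in 9 of 9 libraries, Apoe, Slc1a3, Aqp4, Gja1 and Gjb6 below them in 9 of 9, and Slc1a2 below them in all but 1.

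The other members fell on either side of the list. Aqp4 (0.0541 ± 0.0555%), Gja1 (0.0395 ± 0.0387%), Gjb6 (0.0371 ± 0.0392%) and Slc1a3 (0.183 ± 0.230%) were below it in 9 of 9 libraries. Slc1a2 stood at 0.349 ± 0.432% and was above it in 1 library, WT hippocampus replicate 2, at 1.47%. Glul (4.004 ± 4.187%, 0.956 to 14.1%) and Clu (2.25 ± 1.03%, 1.18 to 4.74%) were above it in 9 of 9 libraries.

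The list itself was not uniform. Pooled over libraries, its genes stood in interneurons between 0.0263% (Mlc1) and 2.95% (Slc6a11, a GABA transporter) of their astrocyte levels, with a median of 0.220%. In one ranking of these pooled values for the 20 genes and the 8 members, Glul (2.42%) was the second, Clu (2.05%) the fourth, Slc1a2 (0.201%) ranked 14, Slc1a3 (0.101%) 17 and Apoe (0.0478%) 21. The order of Glul and Clu differed by region, with Clu above Glul in the 3 WT cortex libraries (2.49, 1.88 and 2.24% against 0.956, 1.16 and 1.01%) and Glul above Clu in the 5 hippocampal libraries and in Grin1-null cortex replicate 2. Apoe was thus beside Ntsr2 (0.0448%), Gfap (0.0264%) and Mlc1 and above Aqp4 (0.0317%) and Gja1 (0.0247%). Since Apoe is also present in microglia, a list of 15 microglia genes was measured in the same way, and in interneurons it stood at 0.0450 ± 0.0138% of its microglia level (n = 6).

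Glul was also compared with oligodendrocytes, the class with the next highest level. Glul in interneurons stood at 17.4 ± 15.4% of its oligodendrocyte level (n = 10, 3.16 to 52.2%), where 8 oligodendrocyte genes, Mbp among them, stood at 1.25 ± 1.72% of theirs (0.0614 to 6.04%). For Clu, the levels of oligodendrocytes and microglia were below those of SST, PVALB and NGFC cells. With each cell thinned to 1000 UMIs, a UMI of Clu was found in 14.2% of interneurons, of Glul in 5.81%, of Slc1a2 in 2.89%, of Apoe in 1.48% and of Slc1a3 in 0.253%. Unthinned, at a median of 8271 UMIs, these shares were 57.9, 32.0, 16.0, 9.35 and 1.66%. Aqp4, which interneurons are not known to use, was found in 0.289% of unthinned interneurons.

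Of the Apoe UMIs in interneurons, a part lay in few cells. Of 9335 interneurons, 8462 had no Apoe UMI, 825 had 1 or 2 (57.0% of all their Apoe UMIs), 37 had 3 to 9, and 11 cells with 10 or more held 551 UMIs, or 33.9%. Pooled, these 11 cells had the 20 astrocyte genes at 2604 CPM, against 135.7 CPM in the cells without Apoe. Of their 175 UMIs of microglia genes, 173 were in 1 cell and 2 in the other 10. The NGFC cell with the most Apoe, 153 UMIs in WT hippocampus replicate 3, was that cell, and had 1 UMI of astrocyte genes. The PVALB cell with 115 Apoe UMIs in the same library had 73 UMIs of astrocyte genes and none of microglia genes. Of the 11 cells, 4 were marked as doublets by Scrublet. Among cells with 1 or 2 Apoe UMIs, the astrocyte genes were at 151.2 CPM, close to the cells without Apoe. In the 37 cells with 3 to 9 Apoe UMIs they were at 213.6 CPM. The microglia genes were at 146.3 CPM in these 37 cells, against 19.7 CPM in the cells without Apoe.

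The other members behaved in part differently. Slc1a2 reached 10 UMIs in 9 interneurons, whose astrocyte genes were at 3339 CPM, whereas the 165 interneurons with 3 to 9 Slc1a2 UMIs had them at 126.8 CPM, against 137.4 CPM in cells without Slc1a2. Clu reached 3 to 9 UMIs in 1719 interneurons, with astrocyte genes at 141.7 CPM, against 141.1 CPM in the 3933 cells without Clu. In the 95 cells with 10 or more Clu UMIs they were at 258.2 CPM. Glul lay between, with astrocyte genes at 119.1 CPM in cells without it, 227.9 CPM in 654 cells with 3 to 9 UMIs and 830.4 CPM in 16 cells with 10 or more, of which 10 were marked as doublets.

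**Figure D4:**
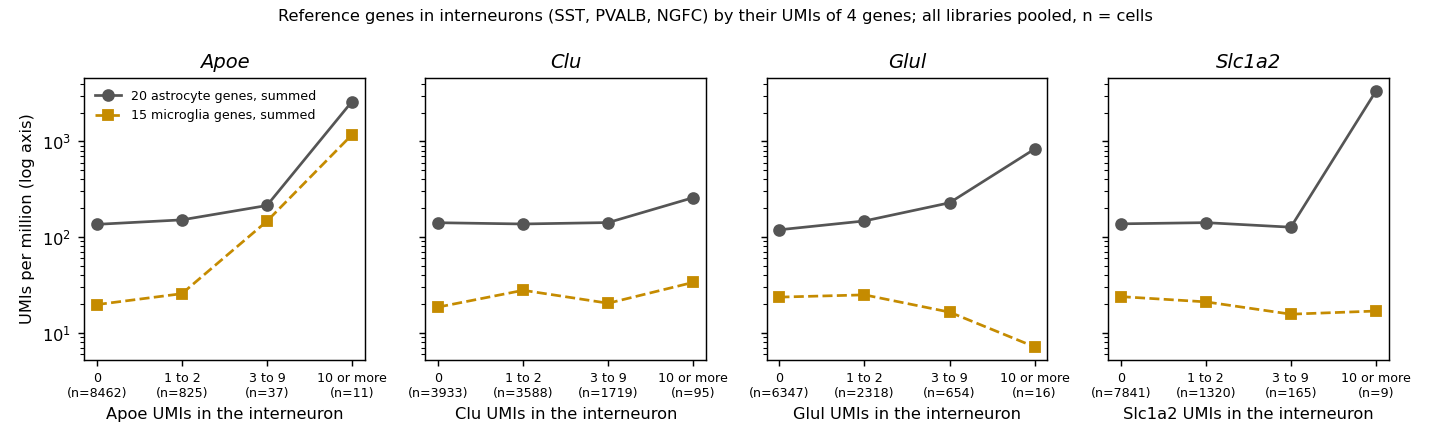
Summed level of 20 astrocyte genes (circles) and 15 microglia genes (squares), in CPM on a log axis, in interneurons grouped by how many UMIs of Apoe, Clu, Glul or Slc1a2 each cell holds, all libraries pooled, with the number of cells under each group. The 11 cells with 10 or more Apoe UMIs have the astrocyte genes at 2604 CPM, and their microglia genes, at 1171 CPM, come from 1 cell (173 of 175 UMIs), while for Clu the astrocyte genes stay between 136.9 and 258.2 CPM in all 4 groups of cells.

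For the comparison of WT hippocampus with WT cortex and of Grin1-null with WT within each region, UMIs were summed per library and class and all genes were tested with edgeR's quasi-likelihood test. A call required p below 0.01 after Benjamini-Hochberg adjustment, together with a change of 0.1 or more in natural-log units. Over the 6 classes with enough libraries, 76 tests of a member in a class were made, 30 between regions, 14 between genotypes in cortex and 32 in hippocampus. No member was called in any of them by edgeR or by DESeq2. The share of all genes called was 0% in every class, except for 0.0618% in SST cells and 0.0448% in PVALB cells between regions, so that the count of members called does not stand out from the background. Unadjusted p was under 0.05 in 15 of the 76 tests of members. These were 9 of 30 between regions, where 4.01% of all tests of a gene in a class were, 1 of 14 between genotypes in cortex (7.14%, against 2.25%) and 5 of 32 in hippocampus (15.6%, against 3.07%). Tests of members in a class share libraries and cells, and these shares are given as a description. The median log2 change over the tests of members was -0.07 between regions, -0.10 between genotypes in cortex and 0.20 in hippocampus.

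In astrocytes, 8 members were tested between regions and between genotypes in hippocampus, and cortex could not be tested by genotype because only 1 Grin1-null library had enough astrocytes. Glul was 6030, 3320 and 2145 CPM in WT cortex and 1897, 582.8 and 2611 CPM in WT hippocampus, a log2 difference of -1.10 (SE 0.52, adjusted p = 0.996, edgeR). The 2 regions overlapped. Clu, whose values are given above, was higher by 0.87 on the log2 scale in Grin1-null than in WT hippocampus (SE 0.45, adjusted p = 0.953), with the 2 Grin1-null libraries above the 3 WT libraries. The other log2 changes were between -0.48 (Gjb6, Slc1a2) and 0.40 (Gja1) between regions and between -0.30 (Gja1) and 0.92 (Glul, SE 0.53) between genotypes. The astrocyte sums also held oligodendrocyte genes, at 136.2 to 10468 CPM for the 8 genes together, or 3.31 ± 4.59% of the oligodendrocyte level, and their part in the Glul values was not tested.

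In oligodendrocyte precursors, Apoe, Clu and Slc1a3 were lower in WT hippocampus than in WT cortex in all 3 pairs of libraries, and passed the threshold only once the pairing was modelled. Apoe was 947.0, 409.8 and 440.8 CPM in WT cortex and 155.8, 97.9 and 239.7 CPM in WT hippocampus (replicates 1, 2 and 3). The 2 regions did not overlap, and the hippocampal library was lower in each pair of the same replicate number, with log2 differences of -2.596, -2.055 and -0.876. Slc1a3 was 111.0, 89.1 and 78.8 CPM in WT cortex and 24.1, 27.4 and 33.5 CPM in WT hippocampus, and Clu 281.2, 139.6 and 136.8 CPM against 49.3, 31.3 and 78.7 CPM, again without overlap. The log2 differences were -1.68 for Apoe (SE 0.43, adjusted p = 0.517, edgeR), -1.58 for Clu (SE 0.43, adjusted p = 0.576) and -1.50 for Slc1a3 (SE 0.38, adjusted p = 0.517). Glul and Slc1a2 were the other members tested. Slc1a2 was also lower in hippocampus in each pair, without overlap, at 111.0, 101.0 and 87.1 CPM against 73.3, 36.8 and 49.6 CPM. Glul had log2 differences of -0.82, 0.64 and 0.06. In oligodendrocytes Apoe was instead higher in hippocampus in each pair. It was 32.8, 25.6 and 14.1 CPM there in WT cortex and 38.0, 39.2 and 66.4 CPM in WT hippocampus.

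Libraries of the same replicate number deviated together in this class and in the other classes tested between regions except astrocytes. In precursors this was weak for replicate 3 (r = 0.15), whose cortical library correlated more with hippocampus replicate 2 (r = 0.26). Replicate 1 had been prepared with an earlier 10x chemistry than replicates 2 and 3. With the replicate number as a block, 58 of 8134 genes (0.713%) were called in precursors, and 3 of the 5 members tested were among them. All 3 were lower in hippocampus, with log2 differences of -1.65 for Apoe (adjusted p = 1.35e-06, edgeR), -1.56 for Clu (adjusted p = 4.62e-05) and -1.46 for Slc1a3 (adjusted p = 0.00252). The make-up of the precursors differed between libraries. In WT hippocampus replicate 2, 60.3% of precursors were in a cluster led by RP23-416H10.8 and 27.0% in one led by Ptprz1, which held at most 4.25% and 1.59% of precursors elsewhere. Within the cluster led by C1ql1, Apoe was 1749, 872.1 and 1091 CPM in WT cortex and 515.5 and 573.2 CPM in WT hippocampus replicates 1 and 3, and Slc1a3 was 223.7, 201.3 and 221.2 CPM against 82.7 and 75.4 CPM. The regions did not overlap within this cluster either. With WT replicate 2 of both regions left out, the block called Apoe (-1.54, adjusted p = 0.000817, with 0.519% of genes called) and neither Clu (-1.37, adjusted p = 0.0141) nor Slc1a3 (-1.44, adjusted p = 0.0470). With only the clusters that had all precursor markers, it called Apoe (-1.41, adjusted p = 0.000776) and Clu (-1.65, adjusted p = 0.000292), with 0.881% of genes called, and not Slc1a3 (-1.24, adjusted p = 0.0241). Both of these settings were chosen after the data were seen.

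Of the 20 other astrocyte genes, 9 could be tested in precursors between regions. None was called without the block, where no member was called either, and no count with the block is given for them. All 9 log2 differences were below 0, from -1.996 to -0.02 with a median of -0.77, and 3 had an unadjusted p under 0.05, namely Sox9, Htra1 (-1.80) and Ednrb (-1.57), named after their values were seen. Summed, the 20 genes stood in precursors at 3.28, 2.66 and 2.98% of their astrocyte level in WT cortex and at 1.60, 3.17 and 1.502% in WT hippocampus, so that replicate 2 was the higher in hippocampus. The 20 astrocyte genes together were at 378.0 to 969.2 CPM in the precursors of the 9 libraries. What stray astrocyte RNA contributed to the differences of Apoe, Clu and Slc1a3 was not tested. In Grin1-null libraries Apoe in precursors was 283.1 CPM in cortex, and 396.3 and 120.6 CPM in hippocampus, and the regional comparison was not made there because 1 cortical library had enough precursors.

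**Figure D5:**
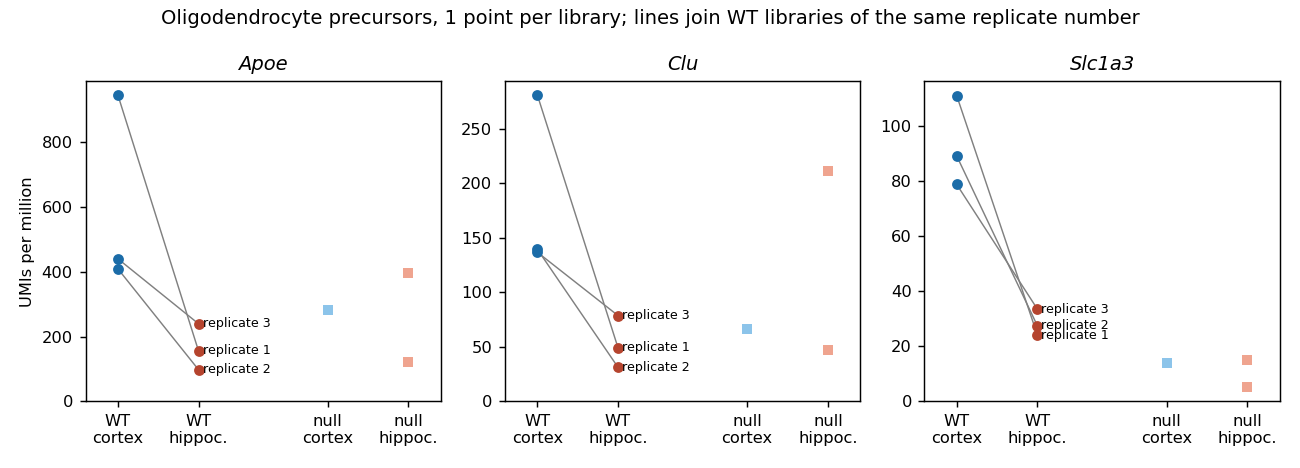
CPM of Apoe, Clu and Slc1a3 in oligodendrocyte precursors, with 1 point per library in each region and genotype and lines that join WT cortex and WT hippocampus libraries of the same replicate number. All 9 lines run downward from cortex to hippocampus, and the 3 WT cortex libraries lie above the 3 WT hippocampus libraries for each gene.

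In PVALB cells, regional and genotype differences of Apoe went with 2 cells. Apoe was 14.4, 26.1 and 7.95 CPM in WT cortex, 138.4, 4.58 and 134.4 CPM in WT hippocampus, 3.44 and 5.96 CPM in Grin1-null cortex and 17.1 and 6.71 CPM in Grin1-null hippocampus. Only WT hippocampus replicates 1 and 3 were high. The log2 difference was 2.52 between WT regions (SE 0.79, adjusted p = 0.665, edgeR) and -3.31 between genotypes in hippocampus (SE 0.95, adjusted p = 1.0). Each of the 2 high libraries held 1 PVALB cell with many Apoe UMIs that Scrublet marked as a doublet, with 47 and 115 UMIs. With marked doublets removed, the differences were -0.74 and 0.02. In WT cortex replicate 2, 1 PVALB cell that was not marked held 59 of the 73 Apoe UMIs, with 66 UMIs of astrocyte genes, and stayed in these sums. Without a filter on low counts, edgeR called both differences, at 2.42 (adjusted p = 1.42e-08, with 0.414% of genes called) and -3.27 (adjusted p = 1.33e-08, with 0.106% of genes called). Slc1a2 in PVALB cells moved with these cells too, from 1.53 to 0.39 between regions and from -2.04 to -0.89 between genotypes in hippocampus once doublets were removed. All 4 members tested in PVALB cells between regions had an unadjusted p under 0.05 (edgeR). Glul and Clu were higher in WT hippocampus in each pair. Glul was 44.2, 52.3 and 20.3 CPM in WT cortex and 150.0, 83.9 and 46.5 CPM in WT hippocampus. Clu was 51.4, 70.2 and 56.4 CPM against 54.8, 108.3 and 122.0 CPM.

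Slc1a2 in SST cells was 9.41, 26.7 and 17.5 CPM in WT cortex and 22.6, 124.0 and 32.1 CPM in WT hippocampus, higher in hippocampus in each pair of the same number, although the regions overlapped. The log2 difference was 1.70 (SE 0.64, adjusted p = 0.572, edgeR) without the block and 1.45 (adjusted p = 0.00469) with it, where 2.04% of genes were called, and 1.61 (adjusted p = 0.00125) without a filter on low counts, where 0.991% were. Without WT hippocampus replicate 2 it was 0.54 (adjusted p = 0.839, no block). In that library 2 of 451 SST cells held 117 of the 192 Slc1a2 UMIs, with 78 UMIs of astrocyte genes. With SST cells of 10 or more Slc1a2 UMIs left out, the levels were 9.41, 19.6 and 16.3 CPM in WT cortex and 22.6, 48.9 and 32.1 CPM in WT hippocampus. The 20 astrocyte genes in SST cells moved with the difference, from 0.387, 0.510 and 0.314% of their astrocyte level in WT cortex to 0.448, 1.31 and 0.516% in WT hippocampus, as did Slc1a3, from 1.14, 2.75 and 0.685 CPM to 5.10, 11.6 and 2.88 CPM. The SST cluster led by Olfm3 held 20.3, 29.6 and 27.9% of SST cells in WT cortex and 51.1, 59.2 and 29.96% in WT hippocampus, and within it Slc1a2 was 11.8, 13.2 and 16.8 CPM against 33.02, 101.02 and 32.1 CPM. The part of these cells and of the make-up in the difference was not tested.

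Glul in oligodendrocytes was 1382, 644.8 and 216.5 CPM in WT cortex and 638.2, 243.6 and 126.4 CPM in WT hippocampus. It was lower in hippocampus within each pair, with log2 differences of -1.114, -1.4005 and -0.771, although the regions overlapped, since each region spread widely over replicate numbers. The log2 difference was -1.19 (SE 0.77, adjusted p = 1.0, edgeR) without the block and -1.11 (adjusted p = 0.00351) with it, where 1.04% of genes were called. The make-up of the oligodendrocytes differed between these libraries, and its part in the difference was not tested. A cluster led by Gm21984 held 77.3% of them in WT hippocampus replicate 2 and at most 7.53% in the other WT libraries, and the Anln cluster held 51.8% in WT cortex replicate 2 and at most 5.16% in the others. The Hapln2 cluster held 60.7, 9.52 and 15.05% in WT cortex and 47.3, 0.0496 and 9.46% in WT hippocampus. Within clusters, the 3 pairs of libraries gave 16 comparisons with enough cells, which are not independent of each other. Glul was lower in hippocampus in 11 of the 16, with a median log2 difference of -0.32. It was lower in the hippocampal library of replicate 1 in the Hapln2 cluster (-0.72) and higher in that of replicate 3 (0.30). With Slc1a2 in SST cells, Glul in oligodendrocytes and the 3 members in precursors, the block called 5 of the 30 tests of members between regions, and none between genotypes. Without WT replicate 2 of both regions it called 7. These were Apoe in precursors, Slc1a2 in SST cells (0.91, where 5.13% of genes were called), and Glul (-1.01) and Apoe (1.17) in oligodendrocytes (2.67%). The others were Apoe (3.78), Slc1a2 (2.94) and Glul (1.41) in PVALB cells (1.19%), the class with the 2 marked doublets. Unlike in oligodendrocytes, Glul was higher in WT hippocampus in each pair in PVALB cells (values above) and in SST cells. In SST cells it was 52.5, 28.0 and 18.8 CPM in WT cortex and 70.7, 63.3 and 39.7 CPM in WT hippocampus. In NGFC the log2 differences of Glul were -0.06, 0.25 and 0.14.

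Between genotypes, the members with an unadjusted p under 0.05 were Slc1a3 in SST cells (-2.35) and Slc1a2 (-1.23) and Slc1a3 (-1.19) in precursors of the hippocampus, Apoe and Slc1a2 in PVALB cells of the hippocampus (above), and Apoe in SST cells of the cortex (-1.14), all lower in Grin1-null libraries on the log2 scale and all with adjusted p from edgeR between 0.971 and 1.0. Apoe in SST cells was 28.2, 18.4 and 12.2 CPM in WT cortex and 7.17 and 9.26 CPM in Grin1-null cortex. Of its UMIs, 49 of 99 in WT cortex replicate 1 were in 2 cells, 54 of 107 in replicate 2 in 1 cell and 25 of 78 in Grin1-null replicate 2 in 1 cell, and these cells held 19, 62 and 53 UMIs of astrocyte genes. Without them the levels were 14.3, 9.13 and 12.2 CPM in WT and 7.17 and 6.31 CPM in Grin1-null cortex. Slc1a3 in precursors was 5.28 and 15.005 CPM in Grin1-null and 24.1, 27.4 and 33.5 CPM in WT hippocampus, without overlap. Slc1a2 there was 42.3 and 15.005 CPM against 73.3, 36.8 and 49.6 CPM, with overlap. The difference between the genotype effects of hippocampus and cortex could be tested for 14 pairs of member and class, and none was called by edgeR. The lowest unadjusted p was that of Slc1a2 in PVALB cells, at 0.0528.

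The genes that work beside the 8 members were taken as 3 lists. The glutamate and glutamine list comprised 15 genes of transport, glutamine use and potassium buffering, of which 13 or 14 were tested per comparison. None was called in 61 tests between regions, 35 between genotypes in cortex and 71 in hippocampus, with unadjusted p under 0.05 in 3, 0 and 1 of them and median log2 changes of -0.05, 0.01 and -0.07. Of this list, the genes with the most UMIs in astrocytes, an order that is no comparison of their transcript levels, were Atp1b2, a sodium pump subunit, at 1326 ± 371.9 CPM and the glutamate dehydrogenase Glud1 at 838.2 ± 273.1 CPM. The list of 13 connexins and partners of aquaporin-4 gave no call in 40, 24 and 49 tests, and most UMIs in astrocytes were of the cell adhesion protein Hepacam, at 487.5 ± 141.1 CPM. The list of 17 lipid carriers and their receptors gave none in 66, 43 and 79 tests, and most UMIs in astrocytes were of the cholesterol-binding protein Npc2 at 364.8 CPM, the Apoe receptor Lrp1 at 261.0 CPM and Lcat, which esterifies cholesterol on lipoproteins, at 219.1 CPM.

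The members' patterns over all 73 sums of a library and a class were compared with those of 7689 other genes by Pearson's r of log2(CPM + 1). These points share libraries and depth, and r is given as a description. Aqp4 was most like Myoc (r = 0.98) and Gli3 (0.98), Gjb6 like Acsbg1 (0.98) and Gli3 (0.98), and Gja1 like Cyp2d22 (0.95) and Prodh (0.94). Slc1a2 was most like Bmpr1b (0.88) and Ntsr2 (0.87), Slc1a3 like Mt1 and Vcam1 (0.86 each), Apoe like Vcam1 and Sdc4 (0.90 each), Clu like Ndrg2 (0.89) and Pygb (0.86), and Glul like Pon2 (0.86) and Sepp1 (0.84). Among the members themselves, Aqp4 and Gjb6 were most alike (r = 0.97) and Glul and Clu least (0.30). The 2 lipid carriers, Apoe and Clu, had an r of 0.41.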

How the data were processed

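TdTomato+ cells were measured with 10x Genomics 3′ single-cell RNA-seq (version 2 chemistry for replicate 1, version 3 for replicates 2 and 3). The authors aligned reads to mm10 with gene ends extended and counted UMIs with Cell Ranger (2.1.1 per the submitters' processing notes, 3.0.2 per the file headers). The deposited values are raw UMI counts, 1 matrix per region and genotype. Barcode suffixes were assigned to replicates by the cell numbers given in the study's methods. The 8 genes and the lists beside them were chosen with earlier results of these data known.

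The cell filter asked for 200 to 6000 detected genes and less than 30% of UMIs from mitochondrial genes. Integration with Seurat 5.3.0 in R 4.3.3 joined the 4 count matrices, and did not align the replicates held within a matrix. Cells were then clustered (25 components, resolution 1.0), without the 8 genes among the features. A cluster was named from a list of markers, at 20 CPM or more for at least 3 of them, and stayed unnamed where more markers of another class led it (985 cells), where its median UMI count was low for its libraries (0.178 and 0.224 of theirs) with no marker among its leading genes (1271 and 166 cells), or where its class was small or mixed (395 and 45 cells). No doublet caller was applied in the main analysis, and Scrublet marked 249 cells. Counts were summed per library and class of at least 10 cells and tested over all genes with the quasi-likelihood F test of edgeR 4.0.16 (after filterByExpr and scaling by TMM, with Benjamini-Hochberg adjustment and the thresholds of the study's methods). Between genotypes, 4 groups shared 1 model. DESeq2 1.42.0 was an alternative, as were scaling, filters, clustering resolution, a replicate block and leaving out each library. The test was also run on simulated counts. All 8 genes are named. Of the other lists, called genes (up to 4 per comparison) and the 3 highest in astrocytes were to be named, with the 2 genes most like each member among those of at least 50 CPM in a class. Log2 values of levels have 1 CPM added.

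WT cortex and hippocampus libraries of the same number deviated together from their group means, with correlations over genes for replicates 1, 2 and 3 of 0.75, 0.70 and 0.45 in SST cells, 0.64, 0.65 and 0.41 in PVALB cells, 0.64, 0.53 and 0.25 in NGFC, 0.88, 0.85 and 0.51 in oligodendrocytes and 0.58, 0.57 and 0.15 in precursors. In astrocytes they were 0.10, 0.18 and -0.05. Outside astrocytes, libraries of unlike number correlated at -0.76 to 0.26. The highest of these was WT cortex replicate 3 with WT hippocampus replicate 2 in precursors, above the matched value of replicate 3 there. The numbers were taken as pairs in every class but astrocytes.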

Additional observations from a re-analysis of the deposited data

How the results depend on the processing

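Each of the 8 genes kept its highest level in astrocytes under 17 settings, and leaving out each library gave 8 of 8 throughout. Of 221 levels, 1 moved by more than its SD, Apoe in microglia to 22630 CPM in the 1 library left by a stricter cell filter. The log2 ratio of Apoe to the astrocyte genes in interneurons lay between -3.65 and -2.42 under 19 alternatives, 18 of them with p of at most 0.031 (exact sign-flip permutation test). The other, chosen after seeing the data, averaged libraries of the same replicate number (-3.23, exact p = 0.25, the smallest that 3 values allow). The ratio lay between -3.58 and -3.21 with each library left out. The count of members called was 0 between genotypes and between regions with each library left out, with DESeq2, with library-size scaling, at resolutions 0.6 and 1.4, with doublets removed and at an adjusted p of 0.05. It was 2 between regions and 1 between genotypes in hippocampus without a filter on low counts. The replicate block called 5 between regions and changed no other call. After seeing the data, the block was also run without WT replicate 2 of both regions, which gave 7, and in precursors with only the clusters that had all precursor markers, which gave 2. Of the 7, 3 were in PVALB cells, Apoe, Slc1a2 and Glul. With doublets removed, Apoe in PVALB cells changed direction to -0.74 between regions and 0.0151 between genotypes in hippocampus. Over all genes, DESeq2 called 107 in SST cells between regions, against 7 by edgeR, and the block 231. Astrocyte sums held 15 to 157 cells, and 1727 genes passed the filter there between regions. The causes of these differences between settings were not tested.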
